A study of Homo sapiens with 9 samples.

Results

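AKR1C1, AKR1C2 and AKR1C3 are related aldo-keto reductases of chromosome 10 that reduce ketosteroids and prostaglandins. They were measured together with AKR1B1 and 6 classical targets of the transcription factor NRF2 (NQO1, HMOX1, GCLM, GCLC, TXNRD1 and SRXN1). This was done in human leukemia cells with RASSF2 knocked down. The 10 genes were chosen by symbol from the 18522 genes of the deposited table, and all 10 passed the filter on low values, so none is missing from what follows. They were chosen after the AKR1C genes had been seen to be high with 1 of the 2 hairpins, shRASSF2-1. Their values with shRASSF2-1 against control, and with shRASSF2-2 against shRASSF2-1, are therefore given as a description. Calls in these contrasts are counted but no p is given and nothing is read from them. Their values with shRASSF2-2 against control, and those of other genes of the NRF2 pathway with either hairpin, were tested. The members and the lists of other genes were also chosen with earlier results of these data known. These tests are therefore not independent of the choice.

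The cells were THP-1, an established human acute monocytic leukemia line. The 3 groups were cells carrying shRASSF2-1, cells carrying shRASSF2-2, an independent hairpin against the same gene, and cells carrying the control hairpin shCTRL, with 3 libraries each. All were transduced with lentivirus and kept in puromycin at 1 ug/mL for 96 h, and their RNA was enriched for poly(A). RASSF2 is a Ras association domain protein that binds the Hippo pathway kinases. Separate cultures are not named in the labels, and p-values measure the spread between these libraries, which may be technical.

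NRF2 (gene NFE2L2) is held in the cytoplasm and marked for degradation by KEAP1. Oxidants and electrophiles modify KEAP1, after which NRF2 enters the nucleus, pairs with a small MAF protein and binds antioxidant response elements, a site that BACH1 occupies as a repressor until heme displaces it. Its targets make glutathione, reduce thioredoxin and quinones and break down heme, and in human cells AKR1C1, AKR1C2 and AKR1C3 are among the genes known to answer to NRF2.

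The 250 bases upstream of 1 annotated start are shown for each AKR1C gene and for both subunit genes of glutamate-cysteine ligase. They were chosen because the AKR1C genes were high with 1 hairpin and the ligase subunits, parts of 1 enzyme, differed with the other. The stretches of AKR1C2 and AKR1C3 lie inside the gene spans given below, so their starts are internal ones. A window of AKR1C3 just outside its span, at 5048531 to 5048780, is not shown. Sequences are from RefSeq (GRCh38.p14), 5′ to 3′ on the gene's strand. The upstream stretches of AKR1C1 and AKR1C2 share an unbroken run of 245 bases, and capitals mark the few bases outside that run. In GCLM, capitals mark a match to TGACNNNGC, the core of the antioxidant response element, searched on both strands.
AKR1C1, chr10:4963165-4963414, plus strand: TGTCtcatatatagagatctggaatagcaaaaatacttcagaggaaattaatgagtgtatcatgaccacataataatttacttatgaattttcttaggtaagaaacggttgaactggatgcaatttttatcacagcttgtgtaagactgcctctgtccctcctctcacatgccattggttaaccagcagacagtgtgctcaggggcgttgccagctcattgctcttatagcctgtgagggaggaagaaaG
AKR1C2, chr10:5003858-5004107, minus strand: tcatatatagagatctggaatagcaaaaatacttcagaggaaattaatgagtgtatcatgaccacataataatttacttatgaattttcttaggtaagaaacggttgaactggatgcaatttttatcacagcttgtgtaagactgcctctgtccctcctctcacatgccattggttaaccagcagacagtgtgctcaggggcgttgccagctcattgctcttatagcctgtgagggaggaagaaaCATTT
AKR1C3, chr10:5094164-5094413, plus strand: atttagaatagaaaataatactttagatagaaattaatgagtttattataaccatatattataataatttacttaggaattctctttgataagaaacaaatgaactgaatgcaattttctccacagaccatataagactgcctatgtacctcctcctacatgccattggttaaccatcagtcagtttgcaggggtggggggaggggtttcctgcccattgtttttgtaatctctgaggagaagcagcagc
GCLM, chr1:93909431-93909680, minus strand: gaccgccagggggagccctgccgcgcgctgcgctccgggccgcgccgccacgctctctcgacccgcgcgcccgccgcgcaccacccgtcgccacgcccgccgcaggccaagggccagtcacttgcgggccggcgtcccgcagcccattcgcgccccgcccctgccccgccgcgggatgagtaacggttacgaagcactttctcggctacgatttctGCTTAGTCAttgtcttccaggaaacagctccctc
GCLC, chr6:53545102-53545351, minus strand: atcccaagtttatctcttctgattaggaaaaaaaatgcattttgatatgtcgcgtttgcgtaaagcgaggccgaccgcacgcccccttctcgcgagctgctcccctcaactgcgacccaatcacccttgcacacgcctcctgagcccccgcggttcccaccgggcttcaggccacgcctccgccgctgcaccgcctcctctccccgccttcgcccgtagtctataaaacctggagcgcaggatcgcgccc

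RefSeq promoter windows, which add the 50 bases after the annotated start, were matched for 9 of the 10 members, in 12 windows. HMOX1 was not matched. The core was found in 3 of the 12 windows (25%), 1 of GCLM and 2 of TXNRD1, against 13.35% of all 35116 windows of the same length. The match in GCLM, GCTTAGTCA on the minus strand relative to the gene, lies 34 to 26 bases before the start. Windows of AKR1C1, AKR1C2, AKR1C3, AKR1B1, NQO1, GCLC and SRXN1 did not hold these letters. Sequence outside these short windows was not searched, so a gene without a match here may hold the element elsewhere. Among windows of 40 other listed NRF2 targets, 14 of 36 held the core (38.89%). The internal upstream stretch of AKR1C3 shown here aligned to that of AKR1C1 with 69.92% identical positions. For the AKR1C3 stretch that is not shown the share was 72.41%.

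Values are deposited gene counts after size-factor scaling of each library, called normalized read counts here. Reads per library were 13342774 to 14235139 with shRASSF2-1, 14508544 to 15176637 with shRASSF2-2 and 13938612 to 20103374 with shCTRL. RASSF2 was at 134, 198 and 159 with shRASSF2-1 and at 331, 342 and 262 with shRASSF2-2, against 1104, 1078 and 1010 with shCTRL, below control in every knockdown library. Monocytic marker genes summed to 3169 to 3247 CPM (counts scaled to the library total) with shRASSF2-1, 4633 to 4796 CPM with shRASSF2-2 and 2746 to 3064 CPM with shCTRL, all 16 markers being in the table. Single markers went both ways. Against control, 4 of the 16 were called higher and 6 lower with shRASSF2-1 (25% and 37.5%), against 26.9% and 29.2% of all genes tested. With shRASSF2-2, 8 were called higher and 6 lower (50% and 37.5%), against 31.8% and 29.1%. Controls 1 and 2 were sequenced on a different flow cell from the other 7 libraries. The mitochondrial share of reads was 4.31% to 5.24% with shRASSF2-1, 2.61% to 3.61% with shRASSF2-2 and 5.86% to 7.45% with shCTRL. In bulk RNA, fewer cells of a type and less RNA per cell cannot be told apart.

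The 3 AKR1C reductases were high in all 3 libraries with shRASSF2-1 and low in all others. AKR1C2 (gene ID 1646, chromosome 10, 4987775 to 5018000), which mainly inactivates dihydrotestosterone, had 4330, 4047 and 4196 normalized read counts with shRASSF2-1 and 46.5, 124 and 56.0 with shRASSF2-2, against 78.6, 128 and 122 with shCTRL. Its log2 fold change with shRASSF2-1 against control was 5.28 (SE 0.313), the third highest of 15465 genes tested. No library with shRASSF2-1 came near those of the other groups, while the values with shRASSF2-2 and shCTRL overlapped.

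AKR1C1 (gene ID 1645, 4963415 to 4983283), which inactivates progesterone, had 720, 702 and 681 normalized read counts with shRASSF2-1 and 62.4, 98.7 and 100.002 with shRASSF2-2, against 123, 73.9 and 69.4 with shCTRL. With shRASSF2-1 the log2 fold change of AKR1C1 was 3.01 (SE 0.240). AKR1C3 (gene ID 8644, 5048781 to 5107686), which makes testosterone and reduces prostaglandin D2, had 478, 445 and 468 with shRASSF2-1 and 14.7, 27.2 and 16.5 with shRASSF2-2, against 16.9, 39.0 and 30.0 with shCTRL. For AKR1C3 the log2 fold change with shRASSF2-1 was 4.05 (SE 0.312). For both genes the values with shRASSF2-1 stood apart, and those with shRASSF2-2 overlapped with control.

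Levels of different genes can be set side by side only roughly, since the annotation used for counting is not given. Per kilobase of all annotated exons of a gene joined, AKR1C2 averaged 649 normalized read counts with shRASSF2-1, 11.7 with shRASSF2-2 and 16.9 with shCTRL. AKR1C3 averaged 102 with shRASSF2-1, 4.30 with shRASSF2-2 and 6.32 with shCTRL, and AKR1C1 averaged 80.0 with shRASSF2-1, 9.93 with shRASSF2-2 and 10.1 with shCTRL. AKR1C2 thus had the highest level of the 3 with shRASSF2-1, while AKR1C1 and AKR1C2 lay within the spread of the libraries with shRASSF2-2 and shCTRL. Before division by exon length AKR1C1 averaged 701 and AKR1C3 464 with shRASSF2-1, so the order of these genes depends on the length used. Reads can be shared within this family: of 100-base windows of coding transcripts (GENCODE v29), 16.3% of AKR1C1, 27.6% of AKR1C2 and 3.85% of AKR1C3 also occur in another of AKR1C1 to AKR1C4, so the division of reads between AKR1C1 and AKR1C2 is uncertain.

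With shRASSF2-2 against control the AKR1C genes were tested, and none of the 3 passed. The log2 fold change was -0.01 for AKR1C1 (SE 0.240, limma adjusted p = 0.967), -0.63 for AKR1C2 (SE 0.313, limma adjusted p = 0.104) and -0.51 for AKR1C3 (SE 0.312, limma adjusted p = 0.185). This rests in part on control 1: without it, AKR1C2 was lower with shRASSF2-2 by limma (log2 fold change -0.85, adjusted p = 0.0113, with a range of 0.00196 to 0.357 over 20 alternatives) and so was AKR1C3 (-0.83, adjusted p = 0.00817, range 0.00817 to 0.523). AKR1C2 was also lower without shRASSF2-2 replicate 2 (-1.05, limma adjusted p = 0.00196). The difference between the hairpins, shRASSF2-2 against shRASSF2-1, was -3.03 for AKR1C1, -5.91 for AKR1C2 and -4.55 for AKR1C3 in log2 units, and that of AKR1C2 was the lowest of all genes tested.

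**Figure D1:**
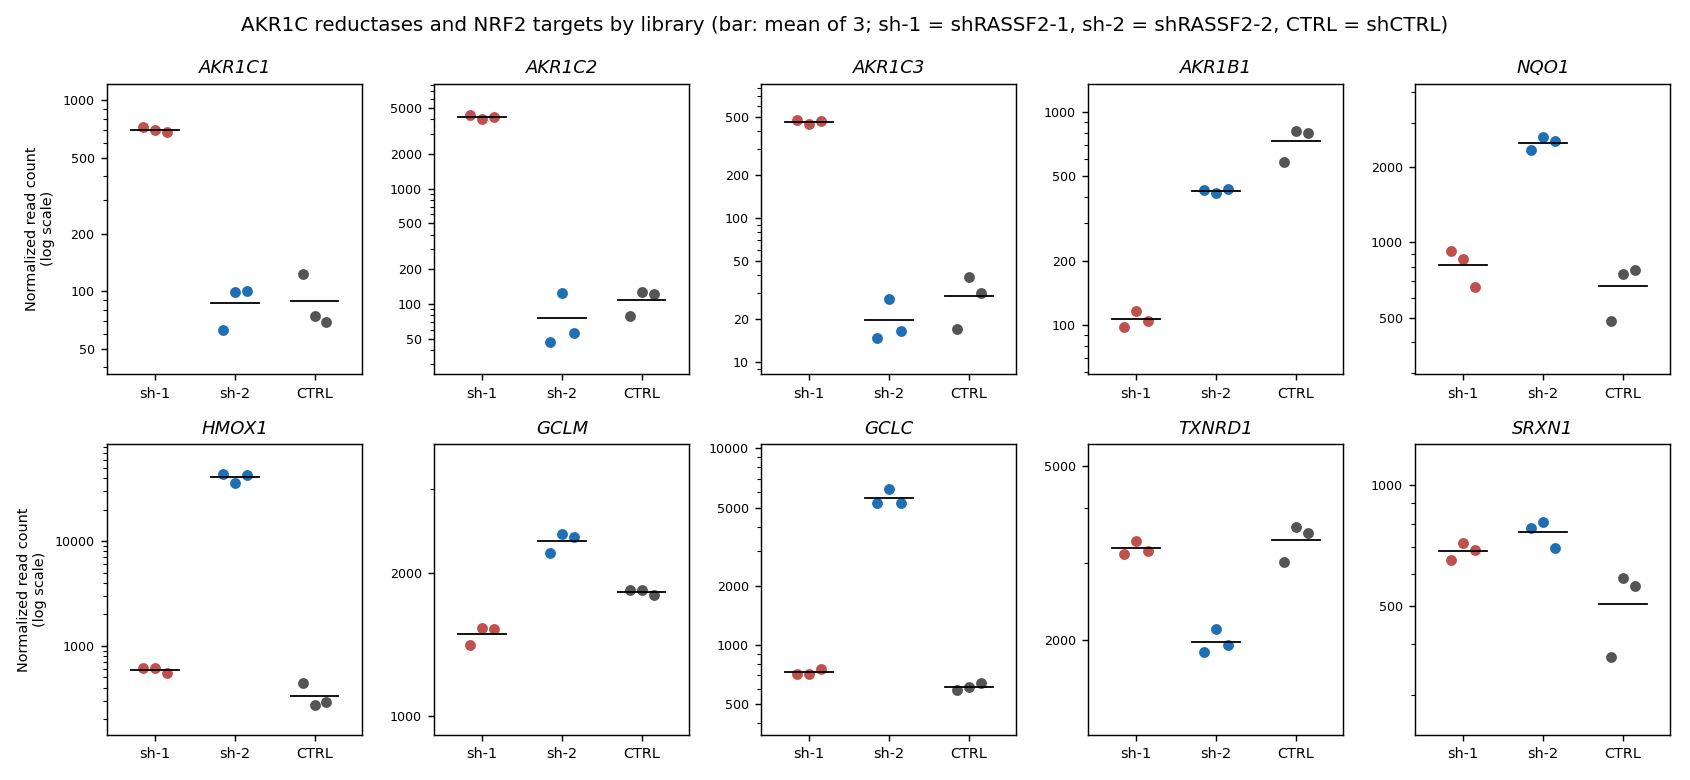
Normalized read counts (log axis) of the 10 genes in each library, with shRASSF2-1 (sh-1), shRASSF2-2 (sh-2) and shCTRL (CTRL); points are libraries and bars are group means. The AKR1C genes are high with shRASSF2-1 alone of the groups, with AKR1C2 at 4047 to 4330, while HMOX1 reaches 36295 to 43441 with shRASSF2-2.

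AKR1B1, aldose reductase, which reduces glucose to sorbitol, moved the other way from the AKR1C genes with shRASSF2-1. It had 98.1, 117 and 104 normalized read counts with shRASSF2-1 and 430, 415 and 434 with shRASSF2-2, against 583, 816 and 800 with shCTRL. The groups did not overlap. With shRASSF2-1 the log2 fold change was -2.76 (SE 0.141). With shRASSF2-2 it fell by 0.76 on the log2 scale (SE 0.141, limma adjusted p = 0.00079).

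HMOX1, heme oxygenase 1, which splits heme into biliverdin, iron and carbon monoxide, had the largest difference of the NRF2 targets. It had 615, 618 and 549 normalized read counts with shRASSF2-1 and 43441, 36295 and 42389 with shRASSF2-2, against 439, 273 and 292 with shCTRL. With shRASSF2-2 HMOX1 was thus 122-fold above control by group means. On the log2 scale the change was 6.95 (SE 0.160, limma adjusted p = 1.81e-09) and 6.82 to 7.16 over the 20 alternatives. HMOX1 took up 0.216% to 0.264% of all reads with shRASSF2-2, 0.00430% to 0.00491% with shRASSF2-1 and 0.00164% to 0.00260% with shCTRL. Ranked by value, HMOX1 was the 12th, 18th and 15th highest gene in the libraries with shRASSF2-2, between ranks 5185 and 5652 with shRASSF2-1 and between 6643 and 8330 with shCTRL. With shRASSF2-1 the log2 fold change was 0.86 (SE 0.160), with every library above every control.

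The glutamate-cysteine ligase subunits, which catalyse the first step of glutathione synthesis, differed from each other. GCLC, the catalytic subunit, had 715, 714 and 758 normalized read counts with shRASSF2-1 and 5249, 6209 and 5259 with shRASSF2-2, against 589, 610 and 638 with shCTRL. It rose with shRASSF2-2 by a log2 fold change of 3.18 (SE 0.0878, limma adjusted p = 2.03e-09), a 9.10-fold ratio of means. GCLM, the modifier subunit, had 1408, 1533 and 1521 with shRASSF2-1 and 2197, 2410 and 2369 with shRASSF2-2, against 1841, 1836 and 1797 with shCTRL. GCLM rose with shRASSF2-2 as well, by 0.35 in log2 units (SE 0.0746, limma adjusted p = 0.00212). With shRASSF2-1 the log2 fold changes were 0.25 for GCLC (SE 0.0878) and -0.30 for GCLM (SE 0.0746), so the 2 subunits lay on opposite sides of control. When libraries were scaled by their total reads GCLM was at 0.08 instead, and the call of GCLC with shRASSF2-1 was lost when the flow cell was a covariate, without shCTRL replicate 2 and without any 1 of the shRASSF2-1 libraries.

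NQO1, which reduces quinones, had 922, 858 and 664 normalized read counts with shRASSF2-1 and 2334, 2639 and 2532 with shRASSF2-2, against 485, 747 and 776 with shCTRL. All libraries with shRASSF2-2 lay above all others, whereas those with shRASSF2-1 overlapped with control. NQO1 rose with shRASSF2-2 by a log2 fold change of 1.93 (SE 0.179, limma adjusted p = 5.35e-06), and its value with shRASSF2-1 was 0.30 (SE 0.179). The shRASSF2-1 value was 0.06 with the flow cell as a covariate, 0.084 without shCTRL replicate 1 and 0.68 under scaling by total reads.

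SRXN1, sulfiredoxin, which repairs over-oxidised peroxiredoxins, had 649, 715 and 689 normalized read counts with shRASSF2-1 and 781, 809 and 695 with shRASSF2-2, against 371, 587 and 560 with shCTRL. It lay above control with both hairpins, which overlapped with each other. It rose with shRASSF2-2 by 0.61 in log2 units (SE 0.158, limma adjusted p = 0.00636). With the flow cell as a covariate the value was 0.44 (limma adjusted p = 0.120; range over the alternatives 0.00057 to 0.120). Its log2 fold change with shRASSF2-1 was 0.46 (SE 0.158), a call that was lost with the flow cell as a covariate and without any 1 of the shRASSF2-1 libraries.

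TXNRD1, thioredoxin reductase 1, which keeps thioredoxin reduced, was the NRF2 target of the 6 that was lower with shRASSF2-2. It had 3149, 3368 and 3188 normalized read counts with shRASSF2-1 and 1875, 2116 and 1945 with shRASSF2-2, against 3014, 3615 and 3514 with shCTRL. It fell with shRASSF2-2 by 0.77 on the log2 scale (SE 0.0902, limma adjusted p = 3.17e-05), and every library with shRASSF2-2 lay below every other library. Its log2 fold change with shRASSF2-1 was -0.06 (SE 0.0902), and 0.32 under scaling by total reads.

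**Figure D2:**
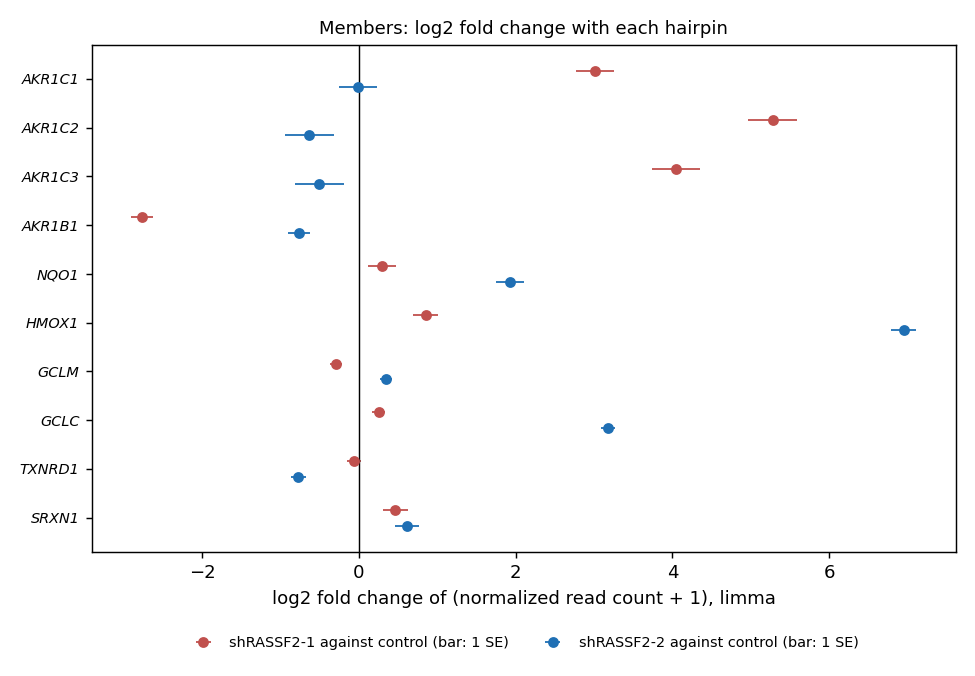
Log2 fold change of (normalized read count + 1) for the 10 genes with shRASSF2-1 against control and with shRASSF2-2 against control; points are limma estimates and bars 1 standard error. The AKR1C genes lie at 3.01 to 5.28 with shRASSF2-1 and at -0.63 to -0.01 with shRASSF2-2, and HMOX1 and GCLC show the reverse order.

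With shRASSF2-2 against control, 5 of the 10 members rose (NQO1, HMOX1, GCLM, GCLC and SRXN1), 2 fell (AKR1B1 and TXNRD1) and the 3 AKR1C genes did not pass. Of all genes tested 60.9% were called in that comparison, 31.8% up and 29.1% down, so the share of members called is near the background. With shRASSF2-1 against control, 6 members were called higher and 2 lower, where 56.1% of all genes were called. With shRASSF2-2 against shRASSF2-1, 5 were called higher and 4 lower, where 58.5% of all genes were called. By non-overlap of the 3 libraries with the 3 compared, 5 members were higher and 2 lower with shRASSF2-2, where 64.5% of all genes did not overlap with control, 33.9% higher and 30.6% lower. With shRASSF2-1, 6 were higher and 2 lower, where 61.3% of genes did not overlap, 29.9% higher and 31.3% lower. Between the hairpins 9 members did not overlap, as did 74% of all genes. The counts with shRASSF2-1 and between the hairpins come from contrasts that the choice of members used, and both hairpin comparisons with control share the control libraries. Scaling by total reads gave 8 members higher and 1 lower with shRASSF2-1, and it moved the median log2 fold change of all genes to 0.39 for shRASSF2-1 and to -0.41 for shRASSF2-2 against shRASSF2-1, against 0.02 and -0.03 with the deposited scaling.

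On the flow cell that 7 libraries shared, which holds 1 control, the log2 fold changes with shRASSF2-1 were 3.32 for AKR1C1, 5.09 for AKR1C2, 3.91 for AKR1C3 and -2.90 for AKR1B1. With shRASSF2-2 they were 7.11 for HMOX1, 3.12 for GCLC, 1.69 for NQO1, 0.37 for GCLM, 0.44 for SRXN1 and -0.83 for TXNRD1. All of these had the sign of the values over 9 libraries.

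The question whether high AKR1C expression went with other NRF2 targets was taken to a list of 40 further genes known as NRF2 targets, of which 39 were in the table and 37 were tested. With shRASSF2-1, the hairpin with high AKR1C, 10 of the 37 rose and 11 fell (27.0% and 29.7%), and 16 did not pass. Over all genes tested 26.9% rose and 29.2% fell, so the list's shares were those of the background. The median log2 fold change was -0.13 in the list and 0.02 over all genes. Scaling by total reads gave 13 up and 9 down, where 6981 of all 15465 genes rose and 2596 fell. Leaving out shCTRL replicate 1 gave 13 up and 17 down, where 4991 of all genes rose and 5240 fell.

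With shRASSF2-2, 21 of the 37 other targets rose and 3 fell (56.8% and 8.11%), against 31.8% and 29.1% of all genes. The median log2 fold change was 0.75 in the list and 0.04 over all genes. In the direct comparison of shRASSF2-2 with shRASSF2-1, 26 of the 37 rose and 4 fell (70.3% and 10.8%), against 30% and 28.5% of all genes, with medians of 0.79 and -0.03. Scaling by total reads gave 19 up and 6 down in that comparison, when the median of all genes was -0.41. At least a 2-fold change among called genes was seen for 6 targets up and 4 down with shRASSF2-1, and for 14 up and 1 down with shRASSF2-2. The share of all genes with such a change was not counted, so nothing is read from these 2-fold counts.

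FTH1 had the largest log2 fold change of the other targets with shRASSF2-2, and ABCC3 (3.47, below) lay between FTH1 and FTL. FTH1, the ferritin heavy chain, had 74720, 70063 and 81439 normalized read counts with shRASSF2-2, against 4277, 6925 and 7956 with shCTRL, a log2 fold change of 3.61 (SE 0.195, limma adjusted p = 1.09e-07). FTL, the light chain, had 157046, 150744 and 171314 with shRASSF2-2, against 22036, 32492 and 34181 with shCTRL, a log2 fold change of 2.46 (SE 0.171, limma adjusted p = 6.03e-07). Neither pair of groups overlapped. With shRASSF2-1 FTH1 rose by 1.10 in log2 units, and the value of FTL was -0.39, which did not pass. OSGIN1, an oxidative stress-induced growth inhibitor, rose with both hairpins, by 1.05 with shRASSF2-1 and by 2.30 with shRASSF2-2.

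The biliverdin reductases, which act on the product of heme oxygenase, parted between the hairpins. BLVRB had 130, 118 and 90.7 normalized read counts with shRASSF2-1 and 1578, 1351 and 1446 with shRASSF2-2, against 547, 318 and 264 with shCTRL. Against control BLVRB was at -1.68 in log2 units with shRASSF2-1 (SE 0.237, limma adjusted p = 0.000171) and at 2.02 with shRASSF2-2. The difference of the hairpins was 3.70 (SE 0.237, limma adjusted p = 4.29e-07). BLVRA had 182, 171 and 142 with shRASSF2-1 and 1016, 1094 and 1102 with shRASSF2-2, against 711, 761 and 827 with shCTRL. Against control BLVRA was at -2.21 in log2 units with shRASSF2-1 (SE 0.112, limma adjusted p = 2.02e-07) and at 0.48 with shRASSF2-2. Both genes thus lay below control in every shRASSF2-1 library and above control in every shRASSF2-2 library.

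ABCC3, an export pump for conjugated organic anions, rose to about the same level with both hairpins. It had 1213, 1276 and 1169 normalized read counts with shRASSF2-1 and 1348, 1253 and 1404 with shRASSF2-2, against 120, 114 and 125 with shCTRL. The log2 fold changes were 3.34 and 3.47 (SE 0.0883 each), and the 2 hairpin groups overlapped. CES1, a carboxylesterase, fell with shRASSF2-1 by 1.34 on the log2 scale (SE 0.268, limma adjusted p = 0.00167), and its value with shRASSF2-2 was 0.13, which did not pass.

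TXN, thioredoxin, the substrate of TXNRD1, was named after its values were seen, as 1 of the 3 other targets that fell with shRASSF2-2. It had 1388, 1174 and 1166 normalized read counts with shRASSF2-1 and 721, 748 and 822 with shRASSF2-2, against 2096, 2823 and 3028 with shCTRL. It fell by 1.08 on the log2 scale with shRASSF2-1 and by 1.78 with shRASSF2-2. The other 2 that fell with shRASSF2-2 were GSTP1, a glutathione transferase (-0.89), and UGDH, which makes UDP-glucuronate (-0.53).

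**Figure D3:**
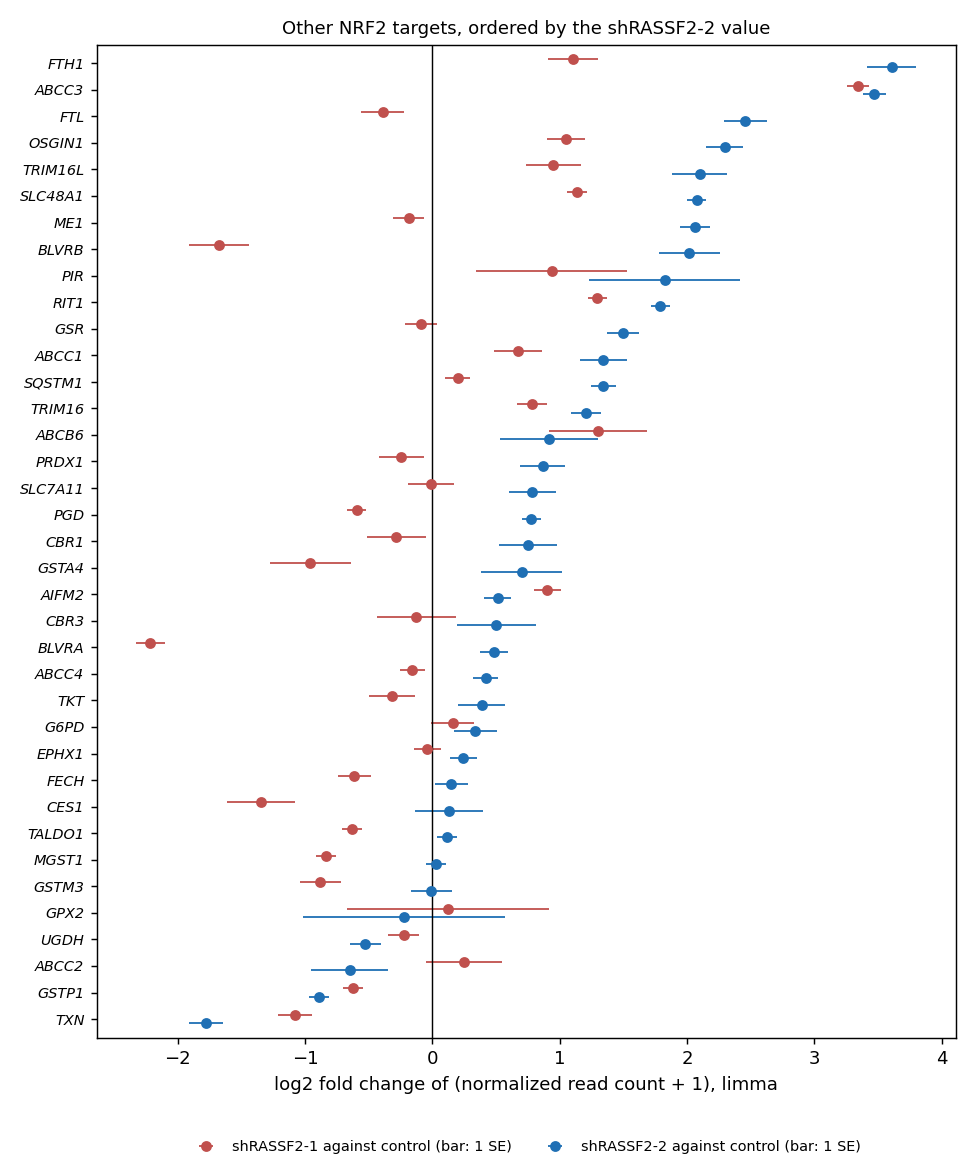
Log2 fold change of (normalized read count + 1) for the 37 other NRF2 targets tested, with shRASSF2-1 against control and with shRASSF2-2 against control, ordered by the shRASSF2-2 value; points are limma estimates and bars 1 standard error. Values with shRASSF2-2 lie mostly above 0, from FTH1 at 3.61 down to TXN at -1.78, while values with shRASSF2-1 lie on both sides of 0.

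The mRNA of NRF2 itself was highest with shRASSF2-2. NFE2L2 had 2133, 2010 and 1979 normalized read counts with shRASSF2-1 and 3640, 3960 and 3779 with shRASSF2-2, against 1344, 1561 and 1707 with shCTRL, and no groups overlapped. It rose with shRASSF2-2 by 1.31 in log2 units (SE 0.0950, limma adjusted p = 8.39e-07), and with shRASSF2-1 the rise was 0.41 (limma adjusted p = 0.00383). The hairpins differed by 0.89 (limma adjusted p = 1.85e-05). With the flow cell as a covariate the shRASSF2-1 value was 0.26 (limma adjusted p = 0.106, range over the alternatives 9.52e-05 to 0.106).

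KEAP1 had 1737, 1596 and 1596 normalized read counts with shRASSF2-1 and 1747, 1824 and 1631 with shRASSF2-2, against 2621, 1858 and 1758 with shCTRL. Its log2 fold changes were -0.32 with shRASSF2-1 (limma adjusted p = 0.0682) and -0.24 with shRASSF2-2 (limma adjusted p = 0.149), and neither passed. Without shCTRL replicate 3 both passed, at -0.43 with shRASSF2-1 (limma adjusted p = 0.0211, range over the alternatives 0.0211 to 0.696) and -0.35 with shRASSF2-2 (limma adjusted p = 0.0447, range 0.0447 to 0.929). BACH1, the repressor, had 704, 720 and 781 with shRASSF2-1 and 1417, 1479 and 1487 with shRASSF2-2, against 1166, 972 and 830 with shCTRL. It rose by 0.58 with shRASSF2-2 (limma adjusted p = 0.00149) and fell by 0.42 on the log2 scale with shRASSF2-1 (limma adjusted p = 0.0113), and its call with shRASSF2-1 was lost with total-read scaling and with the flow cell as a covariate.

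MAFF, a small MAF partner of NRF2, had 13.3, 37.1 and 13.6 normalized read counts with shRASSF2-1 and 402, 431 and 420 with shRASSF2-2, against 36.3, 23.3 and 30.9 with shCTRL. It rose with shRASSF2-2 by a log2 fold change of 3.77 (SE 0.351, limma adjusted p = 5.43e-06). With shRASSF2-1 its value was -0.62, which did not pass, though it did without shRASSF2-1 replicate 2 (-1.08). The other small MAF genes rose less with shRASSF2-2, by 0.46 for MAFG and 0.54 for MAFK. With shRASSF2-1 MAFG was at -0.17 and MAFK at 0.27, and neither passed. MAFG passed without shCTRL replicate 1 (-0.23), and with the flow cell as a covariate or in the 7 libraries that share it (-0.31). MAFK passed without shCTRL replicate 1 (0.31) or replicate 2 (0.36), with the flow cell as a covariate or in those 7 libraries (0.51), and under scaling by total reads (0.65).

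**Figure D4:**
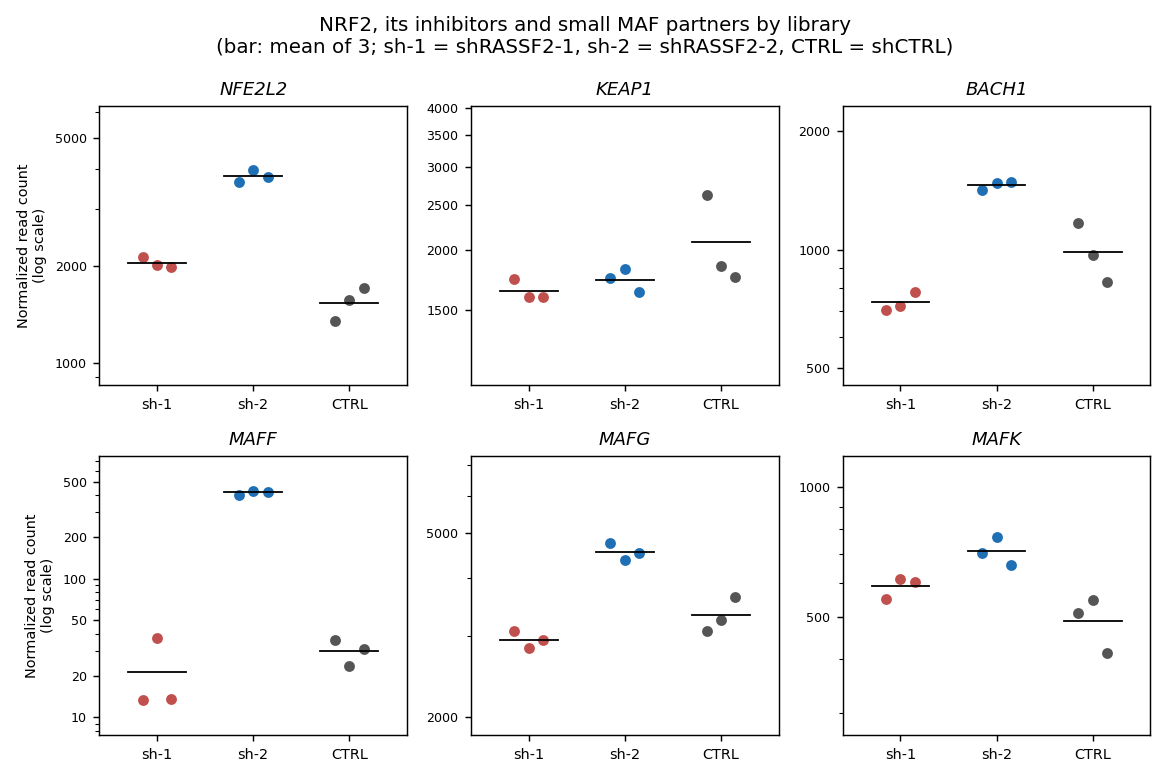
Normalized read counts (log axes) of NFE2L2, KEAP1, BACH1, MAFF, MAFG and MAFK in each library with shRASSF2-1 (sh-1), shRASSF2-2 (sh-2) and shCTRL (CTRL); points are libraries and bars group means. MAFF lies at 402 to 431 with shRASSF2-2, above the 13.3 to 37.1 with shRASSF2-1 and the 23.3 to 36.3 with shCTRL.

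With shRASSF2-1, 3 of 13 NRF2 pathway regulators tested rose and 3 fell. With shRASSF2-2 there were 8 up and 2 down, and with shRASSF2-2 against shRASSF2-1 there were 7 up and 3 down. The medians were -0.17, 0.51 and 0.63 in log2 units, against 0.02, 0.04 and -0.03 over all genes in the same comparisons. The shares up and down were 23.1% and 23.1%, 61.5% and 15.4%, and 53.8% and 23.1%, against 26.9% and 29.2%, 31.8% and 29.1%, and 30% and 28.5% of all genes. Under scaling by total reads these counts became 6 and 0, 8 and 2, and 7 and 5. With that scaling 6981 of all genes rose and 2596 fell with shRASSF2-1, 4791 and 4545 with shRASSF2-2, and 2905 and 7318 between the hairpins. The 2 down with shRASSF2-2 became 0 without shRASSF2-2 replicate 3 or with the flow cell as a covariate, and 1 without any 1 of shCTRL replicate 2, the shRASSF2-1 libraries and shRASSF2-2 replicates 1 and 2. NFE2L1, a relative of NRF2 that drives proteasome genes, rose by 1.57 with shRASSF2-2 (SE 0.0706, limma adjusted p = 3.37e-08) and was at 0.05 with shRASSF2-1. GSK3B and BTRC, a kinase and a ubiquitin ligase adaptor of a KEAP1-independent route of NRF2 decay, rose with shRASSF2-1 by 0.90 and 0.88 in log2 units, and GSK3B also rose with shRASSF2-2, by 0.51. BTRC was lower with shRASSF2-2 than with shRASSF2-1 by a log2 difference of -1.02 (limma adjusted p = 0.000194). RBX1, the RING subunit of the ligase that KEAP1 serves, fell by 0.58 on the log2 scale with shRASSF2-1.

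With shRASSF2-1, 3 of 10 other aldo-keto reductase genes tested rose and 2 fell. With shRASSF2-2 there were 2 up and 1 down, and with shRASSF2-2 against shRASSF2-1 there were 2 up and 3 down. The medians were 0.06, -0.02 and -0.27, against 0.02, 0.04 and -0.03 over all genes. With shRASSF2-1 the shares were 30% up and 20% down, against 26.9% and 29.2% of all genes. With shRASSF2-2 they were 20% up and 10% down, against 31.8% and 29.1%. Between the hairpins they were 20% up and 30% down, against 30% and 28.5%. Total-read scaling gave 4 and 1, 2 and 1, and 1 and 3. Under it 6981 of all 15465 genes rose and 2596 fell with shRASSF2-1, 4791 and 4545 with shRASSF2-2, and 2905 and 7318 between the hairpins. The 2 up with shRASSF2-2 became 4 without shCTRL replicate 1, 1 without shCTRL replicate 2 or shRASSF2-2 replicate 1 or 2, and 0 with the flow cell as a covariate. The 1 down became 2 without shCTRL replicate 1 or shRASSF2-2 replicate 2, and between the hairpins the 2 up became 1 without any 1 of the hairpin libraries. AKR1C4, the hepatic AKR1C gene of the same cluster, had 47.6, 59.2 and 41.7 normalized read counts with shRASSF2-1 and 5.7, 11.3 and 16.5 with shRASSF2-2, against 21.8, 6.6 and 12.2 with shCTRL. It rose with shRASSF2-1 by 1.92 in log2 units (SE 0.466, limma adjusted p = 0.00524). AKR1E2, which lies on the other side of AKR1C1, had 267, 246 and 240 with shRASSF2-1 and 81.6, 120 and 89.0 with shRASSF2-2, against 106, 132 and 133 with shCTRL. It rose with shRASSF2-1 by 1.02 (SE 0.172, limma adjusted p = 0.000581). For both genes the shRASSF2-1 libraries lay above all others. AKR7A2, an aflatoxin aldehyde reductase, fell with both hairpins, by 1.30 with shRASSF2-1 and by 1.81 with shRASSF2-2 on the log2 scale, while its relative AKR7A3 rose, by 1.27 and 0.97. AKR1A1, which reduces glucuronate, fell by 0.58 on the log2 scale with shRASSF2-1 and rose by 0.53 with shRASSF2-2.

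Within 1 Mb of the AKR1C1 to AKR1C3 genes, 10 other genes were tested, and they moved in both directions. With shRASSF2-1, AKR1E2, AKR1C4, FBH1 (0.41) and IL15RA (1.05) rose and NET1 (-0.89), GDI2 (-0.27) and RBM17 (-0.46) fell, in log2 units, while ASB13 (0.06), FAM208B (-0.12) and ANKRD16 (-0.37) did not pass. With shRASSF2-2, FBH1 (0.28) and IL15RA (0.95) rose and NET1 (-2.26), ASB13 (-0.81), ANKRD16 (-1.26) and RBM17 (-0.60) fell. These are 4 up and 3 down with shRASSF2-1, where 56.1% of all genes were called, and 2 up and 4 down with shRASSF2-2, where 60.9% were, so the shares called are near the background.

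**Figure D5:**
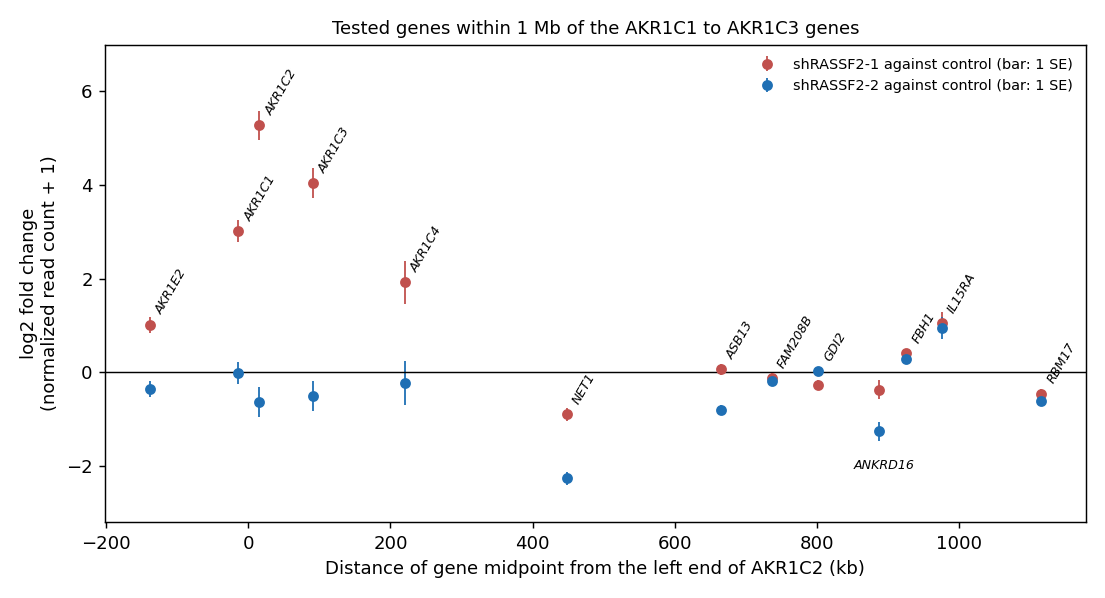
Log2 fold change of (normalized read count + 1) of the tested genes within 1 Mb of AKR1C1 to AKR1C3, against the distance of each gene's midpoint from the left end of AKR1C2 in kb, with shRASSF2-1 against control and with shRASSF2-2 against control; bars are 1 standard error. The AKR1C genes with shRASSF2-1 lie highest, AKR1C4 is at 1.92 and AKR1E2 at 1.02, and the genes farther to the right lie between -2.26 and 1.05.

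Over the 9 libraries, among other genes averaging 5 CPM or more, those whose profile was most like the mean AKR1C profile were F3, tissue factor (Pearson r = 0.995), NPTX1, a neuronal pentraxin (0.994), TRIM41 (0.993), RAP1GAP (0.992), SPIRE2 (0.991) and GLI4 (0.991). The libraries fall into the 3 groups, so r describes group differences and carries no p. F3 averaged 3512 ± 221 normalized read counts with shRASSF2-1 and 370 ± 83.1 with shRASSF2-2, against 532 ± 77.5 with shCTRL (SD, n = 3 each).

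Antioxidant genes outside the NRF2 list were called lower more often than higher against control with both hairpins. With shRASSF2-1, 6 of 29 tested rose and 16 fell. With shRASSF2-2 there were 9 up and 14 down, and with shRASSF2-2 against shRASSF2-1 there were 10 up and 8 down. The medians were -0.41, -0.28 and 0.01, against 0.02, 0.04 and -0.03 over all genes. The shares up and down were 20.7% and 55.2% with shRASSF2-1, against 26.9% and 29.2% of all genes. They were 31.0% and 48.3% with shRASSF2-2, against 31.8% and 29.1%, and 34.5% and 27.6% between the hairpins, against 30% and 28.5%. Scaling by total reads gave 8 and 7, 9 and 14, and 6 and 15, so lower calls did not outnumber higher ones with shRASSF2-1. Under it 6981 of all 15465 genes rose and 2596 fell with shRASSF2-1, 4791 and 4545 with shRASSF2-2, and 2905 and 7318 between the hairpins. PRDX3, the mitochondrial peroxiredoxin, fell by 2.67 with shRASSF2-1 and by 1.16 with shRASSF2-2 on the log2 scale. PRDX6, a peroxiredoxin with phospholipase activity, fell by 1.34 with shRASSF2-1 and rose by 1.17 with shRASSF2-2, and the hairpins differed by 2.51 (SE 0.0823, limma adjusted p = 4.0e-09). GLRX, glutaredoxin, rose by 2.35 with shRASSF2-2 and was at 0.18 with shRASSF2-1. TXNIP, the inhibitor of thioredoxin, rose with both hairpins, by 1.74 and 1.97. SESN1, a sestrin, rose by 1.26 with shRASSF2-1 and 1.69 with shRASSF2-2. SESN3 fell by 1.15 with shRASSF2-1 and 2.51 with shRASSF2-2, and GPX7 fell by 0.75 and 2.20, on the log2 scale. SOD2, the mitochondrial superoxide dismutase, fell by 0.94 with shRASSF2-1 and rose by 1.36 with shRASSF2-2, and exceeded its shRASSF2-1 level by 2.30 log2 units with shRASSF2-2.

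Genes that make, use or sense the substrates of AKR1C enzymes, steroids and prostaglandins, were called in both directions. With shRASSF2-1, 5 of 22 tested rose and 11 fell. With shRASSF2-2 there were 9 up and 6 down, and with shRASSF2-2 against shRASSF2-1 there were 12 up and 3 down, with medians of -0.51, 0.15 and 0.60, against 0.02, 0.04 and -0.03 over all genes. The shares up and down were 22.7% and 50%, 40.9% and 27.3%, and 54.5% and 13.6%, against 26.9% and 29.2%, 31.8% and 29.1%, and 30% and 28.5% of all genes. The 5 up with shRASSF2-1 became 3 without shRASSF2-1 replicate 1. Scaling by total reads gave 7 and 7, 9 and 7, and 10 and 5. Under it 6981 of all 15465 genes rose and 2596 fell with shRASSF2-1, 4791 and 4545 with shRASSF2-2, and 2905 and 7318 between the hairpins. HSD11B1, which regenerates cortisol, had 14.3, 15.9 and 21.8 normalized read counts with shRASSF2-1 and 29.5, 66.9 and 49.5 with shRASSF2-2, against 230, 411 and 421 with shCTRL. It fell by 4.24 with shRASSF2-1 (SE 0.335, limma adjusted p = 3.2e-06) and by 2.86 with shRASSF2-2 on the log2 scale. TBXAS1, thromboxane synthase, rose with both, by 2.57 and 2.89. PTGS2, the inducible cyclooxygenase, rose by 1.11 with shRASSF2-1 and 2.66 with shRASSF2-2. HSD17B14, a hydroxysteroid dehydrogenase, rose by 0.79 with shRASSF2-1 and 3.37 with shRASSF2-2. HSD17B11, another hydroxysteroid dehydrogenase, fell by 1.22 with shRASSF2-1 and 0.66 with shRASSF2-2 on the log2 scale.

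AKR1C genes are abundant in liver and epithelia, so markers of those cells were summed. Epithelial markers, 16 in the table, summed to 94.5 to 246 CPM with shRASSF2-1, 142 to 160 CPM with shRASSF2-2 and 18.4 to 76.4 CPM with shCTRL. Liver markers, 8 in the table, summed to 8.09 to 43.4 CPM with shRASSF2-1, 12.1 to 16.01 CPM with shRASSF2-2 and 4.43 to 25.8 CPM with shCTRL. Connective tissue markers, 9 in the table, summed to 41.7 to 150 CPM with shRASSF2-1, 43.3 to 87.8 CPM with shRASSF2-2 and 17.5 to 24.7 CPM with shCTRL. Epithelial and connective sums were thus above control with both hairpins. The epithelial sum was 18.4 and 23.9 CPM in controls 1 and 2, and 76.4 CPM in control 3, which shared the flow cell of the hairpin libraries. FCGBP alone was at 0.215, 0.149 and 20.8 CPM in controls 1 to 3, 9.37 to 97.6 CPM with shRASSF2-1 and 55.6 to 92.6 CPM with shRASSF2-2. ESRP1 went the other way, at 2.88 to 3.66 CPM with shCTRL, 1.14 to 1.80 CPM with shRASSF2-1 and 0.270 to 0.414 CPM with shRASSF2-2. EPCAM, an epithelial surface protein, was at 0 to 1.48 CPM with shRASSF2-1, 0 to 0.593 CPM with shRASSF2-2 and 0 to 0.647 CPM with shCTRL. Replicate 2 with shRASSF2-1 had the highest epithelial, liver and connective sums of the 9 libraries, and AKR1C2 there was at 4047, the lowest of its group. The part of these cells in the result was not tested.

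The authors' deposited table holds 1 comparison, for which it does not state the libraries. In the authors' deposited table the log2 fold change was 1.70 for AKR1C1, 1.99 for AKR1C2, 2.04 for AKR1C3, 2.35 for HMOX1, 1.91 for GCLC and 1.19 for NQO1, with adjusted p from 0.00711 to 0.0334. Of the other members, SRXN1 was at 0.50 and AKR1B1 at -1.30, also with adjusted p under 0.05. GCLM was at 0.06 and TXNRD1 at -0.37, and neither passed. The fits above gave AKR1C1, AKR1C2 and AKR1C3 their larger value with shRASSF2-1, and HMOX1, GCLC and NQO1 with shRASSF2-2.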

How the data were processed

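RNA sequencing of 9 THP-1 libraries was analysed from the gene table the authors deposited. Per the submitters' processing notes, the tools were DESeq2 1.18.1, featureCounts 1.6.2, HISAT2 2.1.0 and Picard, on hg38; strand setting and annotation are not given in the sources used here. The deposited signal values are read counts after size-factor scaling: all were whole multiples of 1 step per library (tolerance 0.001), so reads could be recovered. The authors' log2 fold changes and adjusted p-values, as deposited, were only copied. Rows without a symbol hold 0.0694% of reads.

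Values were taken as log2(value + 1), which understates changes of low genes, for 15465 genes at 10 or more in at least 3 libraries, and fitted with limma 3.58.1 (trend, R 4.3.3) on all 9 libraries with group as the term. A gene was called at a Benjamini-Hochberg adjusted p under 0.05 over all genes tested. Scripts were tested on simulated data. Alternatives were edgeR 4.0.16 with TMM and DESeq2 1.42.0 on recovered reads, total-read scaling, pseudocounts of 0.1 and 5, no filter, a mean of 1 CPM, the flow cell as a covariate, a block for replicate number, the 7 libraries on 1 flow cell, the compared groups only, and each library left out.

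Members and lists were chosen with earlier results of these data known. Named genes are the members, RASSF2, 6 regulators, up to 4 called genes of largest change per list and comparison with a mean of 1 CPM or more, genes within 1 Mb of AKR1C1 to AKR1C3, and 6 genes of like profile; 1 gene that this rule names is not reported here. Promoter sequences are RefSeq's (GRCh38.p14).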

Additional observations from a re-analysis of the deposited data

How the results depend on the processing

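Over 20 alternatives, 294 of 300 values for RASSF2 and for the counts of members and other NRF2 targets stayed within 1.5 times or on the same side of the threshold. Of the values of single genes, 910 did so, 20 passed anew, 19 no longer passed and 11 changed sign. Members lower with shRASSF2-1 numbered 1, against 2, under scaling by total reads and with the flow cell as a covariate. Leaving out each library gave 10 to 17 other targets down with shRASSF2-1 (11 with all), 2 to 4 members down with shRASSF2-2 (2 with all; 4 without shCTRL replicate 1) and 2 to 6 other targets down with shRASSF2-2 against shRASSF2-1 (4 with all; 2 without shRASSF2-1 replicate 1 or shRASSF2-2 replicate 3). Scaling by total reads turned the sign of some values. With shRASSF2-1 GCLM, called lower at -0.30, went to 0.083 and was not called. TXNRD1 went from -0.06 to 0.32, KEAP1 from -0.32 to 0.060 and MAFG from -0.17 to 0.21, and of these TXNRD1 was called. With shRASSF2-2 against shRASSF2-1 SRXN1 went to -0.24, KEAP1 to -0.31 and MAFK to -0.12, and of these KEAP1 was called. That scaling moves the median of all genes to 0.39 and -0.41 and its split to 6981 up and 2596 down (4160 and 4509 as deposited) and to 2905 and 7318 (4647 and 4403). AKR1C1 with shRASSF2-2, at -0.01, was 0.29 with the flow cell as a covariate and among the 7 libraries on 1 flow cell, and -0.16 to 0.25 with each library left out; the cause was not tested. Replicate numbers did not pair the libraries (correlation of same-numbered deviations -0.156 to 0.120); with the replicate block, 3949 genes rose and 4340 fell with shRASSF2-1, GCLC with shRASSF2-1 stayed at 0.25 but lost its call, and no count of members or other NRF2 targets moved past 1.5 times; regulators down with shRASSF2-2 became 1 (2 without the block), as did other aldo-keto reductases up with shRASSF2-2 against shRASSF2-1 (2 without). Low counts limit precision, as for AKR1C3, at 14.7 to 39.0 normalized read counts outside shRASSF2-1.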
